A study of Homo sapiens with 18 samples.

Results

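The forkhead genes encode transcription factors that share a winged-helix DNA-binding domain, and the letter after FOX gives the subfamily. The genes examined were the rows of the RNA-seq count table whose symbol is FOX, a letter from A to S and a number, without FOXA1, FOXA2, FOXA3 and FOXD3, which left 40 of the 57133 genes in the table, and 39 of them, in 17 subfamilies, are described. FOXC and FOXF factors are known from mesoderm, FOXI3 from the preplacodal ectoderm, FOXJ1 from ciliated cells and FOXH1 from the response to NODAL signals. FOXM1 drives genes of mitosis in dividing cells, and FOXO factors act downstream of insulin and PI3K-AKT signalling, which keeps them out of the nucleus.

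The study asked how loss of PCGF6, a subunit of the polycomb complex PRC1.6, changes gene expression in human pluripotent stem cells (PSCs). RNA-seq was made from PGP1, a human induced PSC line kept undifferentiated in mTeSR1 on Matrigel, in 2 unedited libraries (WT), 2 libraries of PCGF6-KO clone 1 (KO_1) and 2 libraries of PCGF6-KO clone 2 (KO_2). Each knockout was 1 clone made with Cas9 and a guide pair that removed part of the first exon from both alleles, so what is particular to a clone and what PCGF6 loss does cannot be told apart within 1 clone. Nothing in the sources used here says that the libraries of a group came from separate cultures, so p-values measure the spread between these libraries, which may be technical. Where the clones are pooled against WT, that spread also holds the difference between the clones.

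The libraries summed to between 15877396 and 18918609 counts. PCGF6 was counted 268 and 300 times in WT, 99 and 103 times in clone 1 and 187 and 159 times in clone 2. Against WT, its log2 fold change was -1.67 in clone 1 (SE 0.14, adjusted p = 1.03e-10). In clone 2 it was -0.77 (SE 0.13, adjusted p = 1.21e-05). With the clones pooled, PCGF6 fell by 1.15 on the log2 scale in PCGF6-KO (SE 0.27, adjusted p = 0.00914). The deletion lies in the first exon and reads of the other exons can remain, so this level checks the labels only in part. Without WT replicate 1 or WT replicate 2 the adjusted p of PCGF6 was 0.0511 and 0.0763. Of 8 markers of pluripotent cells tested, 1, DNMT3B, was lower and none was higher in PCGF6-KO. That is 12.5%, beside 23.6% of all genes, by the thresholds given below. In clone 2 alone 2 were lower, 25% beside 29.4% of all genes. The summed level of the 8 was 9501 to 9927 counts per 1000000 (CPM) in WT. It was 7333 to 7361 in clone 1 and 6799 to 6945 in clone 2. DNMT3B alone went from 48123 and 51479 counts in WT to 30682 and 28311 in clone 1 and 20832 and 18592 in clone 2. The sum is therefore no measure of the list as a set.

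A gene was called when the adjusted p of edgeR's quasi-likelihood test was under 0.05 and the log2 fold change was over 0.6 in size. Of the 39 forkhead genes, 30 had enough counts to be tested, from 14 subfamilies, and 9 had at most 9 counts in every library. The latter were FOXD2, FOXE1, FOXE3, FOXI1, FOXI2, FOXN1, FOXR1, FOXR2 and FOXS1, and FOXN1 and FOXR2 had 0 counts in all 6 libraries.

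In PCGF6-KO human PSCs, 11 forkhead genes were upregulated, namely FOXB1, FOXC1, FOXC2, FOXD1, FOXF1, FOXF2, FOXI3, FOXL1, FOXL2, FOXP2 and FOXQ1, and 3 were downregulated, namely FOXJ1, FOXN4 and FOXO1. Among all tested genes 23.6% were called, with 14.9% higher and 8.7% lower. For 8 of the 11 upregulated genes neither WT library held more than 10 counts, and these 8 entered the test only through the PCGF6-KO libraries, so their number among the tested genes is a description and carries no weight against the 23.6%. In all 14 called genes the CPM ranges of the PCGF6-KO and WT libraries did not overlap. Genes that pass the test will mostly show this, and the share among all called genes was not computed. For FOXL2 the nearest libraries were WT replicate 1 at 0.246 CPM and clone 1 replicate 1 at 0.314. Leaving out WT replicate 2 left 9 calls, 7 higher and 2 lower, since FOXD1, FOXF2, FOXL2, FOXN4 and FOXP2 no longer passed.

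Of the 11 upregulated genes, 6 lie in 2 genomic groups. On chromosome 6, FOXQ1 (chr6:1312098-1314758), FOXF2 (chr6:1389576-1395603) and FOXC1 (chr6:1609915-1613897) span 301.8 kb on the plus strand of GRCh38. FOXC1 acts in neural crest, eye and somite formation, FOXF2 in the mesenchyme of gut and palate, and FOXQ1 in epithelial cells. The 250 bases before the annotated start of each, from RefSeq promoters on GRCh38.p14, are shown because the 3 genes were near 0 in WT and all were upregulated; capitals mark CG pairs, of which FOXQ1 has 29, FOXF2 has 20 and FOXC1 has 37.
FOXQ1, plus strand, chr6:1311848-1312097: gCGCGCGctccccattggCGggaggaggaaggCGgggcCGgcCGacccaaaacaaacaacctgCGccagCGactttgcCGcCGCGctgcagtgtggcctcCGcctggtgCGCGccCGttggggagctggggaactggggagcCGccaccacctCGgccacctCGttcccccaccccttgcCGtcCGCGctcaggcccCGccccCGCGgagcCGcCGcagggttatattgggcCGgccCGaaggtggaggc
FOXF2, plus strand, chr6:1389326-1389575: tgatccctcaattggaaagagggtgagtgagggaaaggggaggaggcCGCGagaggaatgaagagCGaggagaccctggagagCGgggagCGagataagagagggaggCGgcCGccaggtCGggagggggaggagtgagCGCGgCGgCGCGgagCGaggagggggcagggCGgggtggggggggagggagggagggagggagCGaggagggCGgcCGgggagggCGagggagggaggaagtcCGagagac
FOXC1, plus strand, chr6:1609665-1609914: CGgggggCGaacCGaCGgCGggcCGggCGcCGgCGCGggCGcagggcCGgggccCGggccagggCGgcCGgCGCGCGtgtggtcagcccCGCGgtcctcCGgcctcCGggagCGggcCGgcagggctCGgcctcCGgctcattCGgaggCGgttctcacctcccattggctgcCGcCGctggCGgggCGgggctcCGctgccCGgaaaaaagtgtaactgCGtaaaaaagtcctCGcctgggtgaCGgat

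FOXC1 was counted 2 times in each WT library, 58 and 48 times in clone 1 and 150 and 124 times in clone 2. Both libraries of clone 2 were above both of clone 1, and WT was far below either, with a log2 fold change of 5.39 in PCGF6-KO (SE 0.83, adjusted p = 0.00101). FOXQ1 showed 0 and 2 counts for WT, 27 and 21 for clone 1 and 33 and 29 for clone 2. The clones lay close together for FOXQ1, and the ratio of PCGF6-KO to WT was 25.4 (95% counting interval 6.86 to 212, adjusted p = 0.000761). FOXF2 showed no count for WT, 6 and 4 for clone 1 and 14 and 13 for clone 2. Set against a floor of 3 counts over the WT group, FOXF2 was at least 5.69-fold higher in PCGF6-KO (adjusted p = 0.0152), and this call was lost without WT replicate 1 (adjusted p = 0.0765) or WT replicate 2 (adjusted p = 0.0781). It was no longer tested without either library of clone 2.

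On chromosome 16, FOXF1 (chr16:86510527-86515422), FOXC2 (chr16:86566829-86569728) and FOXL1 (chr16:86576368-86583478) span 73.0 kb, also on the plus strand. FOXF1 is a regulator of splanchnic mesoderm and its vessels, FOXC2 of paraxial mesoderm and lymphatic vessels, and FOXL1 of gut mesenchyme. FOXF1 showed no count for WT, 19 and 25 for clone 1 and 68 and 56 for clone 2. It was at least 25.8-fold higher in PCGF6-KO (adjusted p = 0.00342), and the clones did not overlap. FOXC2 was counted 3 and 2 times in WT, 68 times in each library of clone 1, and 152 and 107 times in clone 2. Clone 2 again stood above clone 1, and the log2 fold change in PCGF6-KO was 5.14 (SE 0.62, adjusted p = 0.000242). FOXL1 showed no count for WT, 21 and 19 for clone 1 and 20 and 21 for clone 2. It was at least 12.5-fold higher (adjusted p = 0.000304). The clones lay close together.

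No tested gene beside these groups was upregulated. Within 250 kb of the chromosome 6 group, GMDS, the enzyme that opens GDP-fucose synthesis, was the only other tested gene found. It was downregulated, from 645 and 651 counts in WT to 444 and 459 in clone 1 and 398 and 355 in clone 2 (log2 fold change -0.76, adjusted p = 0.000153). Between FOXF1 and FOXC2, MTHFSD was counted 190 and 196 times in WT, 200 and 223 times in clone 1 and 261 and 206 times in clone 2 (log2 fold change 0.09, adjusted p = 0.651). Beyond FOXL1, the log2 fold change of LINC02188 was 0.38 (adjusted p = 0.144). The noncoding FENDRR, which starts 1.43 kb from FOXF1 and runs away from it, showed no count for WT, 3 and 2 for clone 1 and 5 and 4 for clone 2, and was too low to be tested. FOXCUT beside FOXC1 was counted 1 and 4 times in clone 2 and 0 times in the other libraries. Of 11 noncoding genes beside or within forkhead genes, 1 had enough counts to be tested and it was not called. The third pair of neighbours, FOXE3 and FOXD2 on chromosome 1, stayed at 4 counts or fewer in every library. The tested genes found beside them, STIL and CMPK1, were not called.

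Genes that mark lateral mesoderm moved along with these 6 genes. Of 10 such markers, all tested, 9 were upregulated, and their summed level went from 8.54 to 8.75 CPM in WT to 199 to 212 in clone 1 and 367 to 403 in clone 2. HAND1, HAND2, TBX20 and NKX2-5 had no count in WT. HAND1, a heart and extraembryonic mesoderm factor, was at least 773-fold higher in PCGF6-KO (adjusted p = 0.00029). Of the 5 paraxial mesoderm markers tested 4 were upregulated, and the summed level of the 6 listed was 6.94 to 8.57 CPM in WT, 23.8 to 25.8 in clone 1 and 37.8 to 44.1 in clone 2; MSGN1 and PAX1 had no count in WT. Of 5 vascular markers tested, 1 was higher and 1 lower, while without WT replicate 1 none was lower and without clone 2 replicate 2 there were 2. The summed level of the 6 listed was 198 to 201 CPM in WT, 527 to 551 in clone 1 and 510 to 547 in clone 2. KDR, a VEGF receptor, made up 149 to 150 CPM of this in WT and 454 to 495 in PCGF6-KO, and the rest of the list summed to 48.8 to 51.2 CPM in WT and 55.0 to 58.4 in PCGF6-KO. CDH5, the cadherin of endothelial cells, fell by 1.43 (adjusted p = 0.00374). The shares called were 90% of the lateral mesoderm markers tested, 80% of the paraxial and 40% of the vascular, beside 23.6% of all genes. HAND1, HAND2, TBX20, NKX2-5 and MSGN1 entered the test only through the PCGF6-KO libraries. These shares are therefore a description and carry no weight against the 23.6%. In bulk RNA, more cells of a type and more RNA per cell cannot be told apart, and the part of such cells in the forkhead results was not tested.

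FOXI3 was the forkhead gene with the highest level among those upregulated. It lies on the minus strand at chr2:88446787-88452693 and its product prepares ectoderm to form the ear and other placodes. FOXI3 was counted 73 and 57 times in WT, 619 and 653 times in clone 1 and 694 and 684 times in clone 2. The WT libraries were low and all 4 PCGF6-KO libraries high, with a log2 fold change of 3.24 (SE 0.17, adjusted p = 1.6e-06). Per gene length, FOXI3 went from 6.26 ± 1.18 transcripts per 1000000 (TPM; SD, n = 2) in WT to 53.2 ± 4.41 (SD, n = 2) in clone 1 and 59.3 ± 4.79 (SD, n = 2) in clone 2. The other genes of its subfamily, FOXI1 and FOXI2, had at most 3 and 9 counts. The 250 bases before its start are shown since FOXI3 gained more TPM than any other forkhead gene; capitals mark the 31 CG pairs.
FOXI3, minus strand, chr2:88452694-88452943: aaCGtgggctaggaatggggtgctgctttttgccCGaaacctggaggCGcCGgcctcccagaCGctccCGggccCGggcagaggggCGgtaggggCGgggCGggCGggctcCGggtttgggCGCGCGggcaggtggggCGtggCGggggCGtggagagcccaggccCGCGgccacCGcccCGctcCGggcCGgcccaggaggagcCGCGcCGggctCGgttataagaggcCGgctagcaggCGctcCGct

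FOXB1 (chr15:60004234-60061730), a factor of the caudal neural tube and mammillary body, was counted 92 and 103 times in WT, 662 and 603 times in clone 1 and 460 and 432 times in clone 2. WT was lowest and clone 1 highest, with a log2 fold change of 2.34 in PCGF6-KO (SE 0.17, adjusted p = 1.05e-05). FOXB2, the other gene of that subfamily, showed 7 and 10 counts for WT, 18 and 9 for clone 1 and 4 and 6 for clone 2. Its WT libraries lay within the range of the PCGF6-KO libraries (log2 fold change -0.0038, adjusted p = 0.997).

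The 3 other upregulated genes were low in every library. FOXD1 (chr5:73444827-73448777), a factor of kidney stroma and retina, showed 1 and 0 counts for WT, 10 and 8 for clone 1 and 24 and 19 for clone 2. Clone 2 was highest, and the ratio of PCGF6-KO to WT was 28.1 (95% counting interval 4.86 to 1129, adjusted p = 0.00796). Without WT replicate 2 the adjusted p was 0.0743, and without either library of clone 2 FOXD1 was no longer tested.

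FOXL2 (chr3:138944224-138947137), a factor of the ovary and eyelid, was counted 4 and 1 times in WT, 6 and 17 times in clone 1 and 11 and 16 times in clone 2. The libraries of clone 1 were far apart, and the log2 fold change was 2.16 (SE 0.73, adjusted p = 0.0444). The call was lost without any 1 library of WT (adjusted p = 0.0786 and 0.27) or clone 2 (0.0563 and 0.08), and by DESeq2 (0.0758), and without clone 1 replicate 2 the gene was no longer tested. FOXP2 (chr7:114086327-114693772), a factor of brain circuits for speech, showed 20 and 12 counts for WT, 40 and 37 for clone 1 and 60 and 52 for clone 2. Its groups did not overlap, with a log2 fold change of 1.45 (SE 0.36, adjusted p = 0.0124), which was 1.11 with an adjusted p of 0.119 without WT replicate 2. The other FOXP genes were not called. The log2 fold change of FOXP1 was 0.05 (adjusted p = 0.779), that of FOXP3 was -0.30 (adjusted p = 0.408) and that of FOXP4 was 0.28 (adjusted p = 0.0451).

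Markers of other cell types lay beside these genes as well. Of 11 markers of neural crest and placodes, 10 were upregulated, and their summed level was 9.65 to 10.1 CPM in WT, 128 to 132 in clone 1 and 173 to 176 in clone 2; TFAP2B and DLX6 had no count in WT. Of 4 forebrain markers tested, EMX2 and LHX2 were higher and HESX1 lower in PCGF6-KO, and the summed level of the 8 listed was 15.3 to 18.3 CPM in WT, 5.33 to 6.49 in clone 1 and 6.23 to 8.33 in clone 2. HESX1 alone made up 14.6 and 17.3 CPM of this in WT and at most 2.09 in PCGF6-KO, and without it the sum was 0.676 and 1.08 CPM in WT, 4.40 to 4.55 in clone 1 and 5.73 to 7.50 in clone 2. NKX2-1 had no count in WT. Of 7 endoderm markers 5 were upregulated, and SOX17 and HNF4A had no count in WT. The summed level of the 7 was 13.1 to 13.6 CPM in WT, 123 to 134 in clone 1 and 166 to 173 in clone 2. GATA6 stands in this list and in that of lateral mesoderm, and CER1 in this list and among the FOXH1 targets below. The shares called were 90.9% of neural crest and placode, 75% of forebrain and 71.4% of endoderm markers tested, beside 23.6% of all genes. TFAP2B, DLX6, EMX2, SOX17 and HNF4A entered the test only through the PCGF6-KO libraries. These shares, too, are a description and carry no weight against the 23.6%. The fibroblast genes COL1A2 and TWIST2 were also higher, the only 2 tested of the 5 listed feeder and blood markers. The summed level of that list was 98.8 to 104 CPM in WT, 407 to 427 in clone 1 and 631 in clone 2, with HBB at 0 in every library. Most of this sum was COL1A2, at 1585 and 1693 counts for WT and 7706 to 11365 over the PCGF6-KO libraries. The sum therefore does not describe the list as a set. TWIST2, the other tested gene, showed 19 and 32 counts for WT and 52 to 82 for PCGF6-KO. Without WT replicate 1, 1 of these 2 genes was called. Their part in the forkhead results was not tested.

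FOXO1 was the downregulated gene with the highest level. It lies on the minus strand at chr13:40555667-40666641. FOXO1 was counted 1410 and 1527 times in WT, 647 and 763 times in clone 1 and 677 and 631 times in clone 2. Both clones fell to the same range, below WT, with a log2 fold change of -1.22 (SE 0.09, adjusted p = 1.16e-05), or from 63.6 ± 2.66 TPM (SD, n = 2) in WT to 26.6 ± 4.28 (SD, n = 2) in clone 1 and 25.3 ± 1.05 (SD, n = 2) in clone 2. The bases before its start are shown for comparison with the genes that rose, and hold 27 CG pairs in capitals.
FOXO1, minus strand, chr13:40666642-40666891: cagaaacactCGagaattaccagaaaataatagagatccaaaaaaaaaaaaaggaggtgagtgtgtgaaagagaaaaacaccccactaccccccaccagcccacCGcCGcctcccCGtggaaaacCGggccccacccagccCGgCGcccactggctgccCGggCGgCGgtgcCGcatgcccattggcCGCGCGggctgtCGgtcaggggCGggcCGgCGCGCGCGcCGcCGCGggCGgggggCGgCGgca

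With both clones pooled, the fitted change was negative in all 4 FOXO genes under each of the 13 settings run, and FOXO1 was the only one called. FOXO3 was counted 530 and 570 times in WT, 398 and 442 times in clone 1 and 417 and 363 times in clone 2. The groups did not overlap, and the log2 fold change of -0.56 (SE 0.09, adjusted p = 0.00124) was under the fold threshold. In clone 1 alone FOXO3 passed that threshold without WT replicate 1 (-0.60, adjusted p = 0.000114) and without clone 1 replicate 2 (-0.67, adjusted p = 1.78e-05). FOXO3B, a near copy of FOXO3 that could take some of its reads, had 229 to 266 counts in the 6 libraries and a log2 fold change of -0.12 (adjusted p = 0.425), so the split between the pair is uncertain. FOXO4 showed 763 and 837 counts for WT, 604 and 579 for clone 1 and 848 and 734 for clone 2. It was lower in clone 1 (log2 fold change -0.61, adjusted p = 1.23e-06) and not called in clone 2 (-0.07, adjusted p = 0.519). The difference between the clones was 0.54 (SE 0.08, adjusted p = 3.4e-05), under the fold threshold, and without WT replicate 2 the change in clone 1 was -0.56, also under it. FOXO6 had 34 and 33 counts in WT and 16 to 28 in the knockouts (log2 fold change -0.69, adjusted p = 0.0807).

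Of 14 genes of the insulin and PI3K-AKT pathway tested, 4 were upregulated and none was downregulated, which is 28.6% called beside 23.6% of all genes, with a median log2 fold change of 0.37 beside 0.00 over all genes. PIK3R1, the regulatory subunit of PI3K, rose by 1.40 (SE 0.08, adjusted p = 3.21e-06), from 471 and 448 counts in WT to 1358 and 1381 in clone 1 and 1276 and 1245 in clone 2. SGK1, a kinase that phosphorylates FOXO factors, was counted 359 and 374 times in WT, 558 and 590 times in clone 1 and 1167 and 1096 times in clone 2. Its pooled log2 fold change was 1.12 (adjusted p = 0.0343), with 0.47 in clone 1, under the fold threshold, and 1.58 in clone 2 (difference 1.11, adjusted p = 5.29e-10). The adaptors of the insulin receptor IRS2 and IRS1 rose by 0.83 and 0.66. In clone 1, 2 of the 14 were called, 14.3% beside 24.8% of all genes. In clone 2 it was 4, 28.6% beside 29.4% of all genes. Without WT replicate 1, 2 of the 4 were called in the pooled comparison.

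Of 19 known targets of FOXO factors tested, 6 were upregulated and none was downregulated, which is 31.6% called beside 23.6% of all genes, with a median of 0.02. CDKN2B, a CDK inhibitor, showed 0 and 2 counts for WT, 231 and 217 for clone 1 and 353 and 354 for clone 2. CDKN1A, also a CDK inhibitor, had 1 and 4 counts in WT and 15 to 26 in the PCGF6-KO libraries (log2 fold change 2.84, adjusted p = 0.00545). Both CDK inhibitors entered the test only through the PCGF6-KO libraries, so the 31.6% is a description. GADD45A, a stress response gene, rose by 1.55 (adjusted p = 0.00128), and KLF6, a zinc-finger factor, went from 457 and 459 counts in WT to between 1208 and 1657 in PCGF6-KO. The fitted change was positive in 10 of the 19, and without WT replicate 1, 3 were called. The other factors that regulate these genes were not examined.

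FOXJ1 and FOXN4 were the other genes that fell, both from low levels. FOXJ1 (chr17:76136333-76141245), the master factor of motile cilia, was counted 30 and 33 times in WT, 9 and 8 times in clone 1 and 5 and 3 times in clone 2. WT was highest, and the log2 fold change was -2.43 (SE 0.36, adjusted p = 0.000871). RNF157-AS1 overlaps FOXJ1 on the opposite strand and had at most 4 counts. Of 12 cilia genes tested, 3 were higher and 3 lower, which is 50% called beside 23.6% of all genes. CCNO, which drives the making of many centrioles, had 0 and 2 counts in WT and 9 to 12 in PCGF6-KO. It entered the test only through the PCGF6-KO libraries, so the 50% is a description. PIFO, a gene of the cilium base, rose by 2.57 (adjusted p = 0.00116). DNAH5, an outer dynein arm chain, rose by 0.98 (adjusted p = 0.0312), while RFX2, a partner of FOXJ1, fell by 0.90 (adjusted p = 0.00613). Without WT replicate 1 or WT replicate 2, 1 of the 3 lower genes was called.

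FOXN4 (chr12:109277978-109309284), a factor of retinal and spinal interneuron progenitors, was counted 29 and 43 times in WT, 21 and 17 times in clone 1 and 4 and 1 times in clone 2. The order was WT, clone 1, clone 2 with no overlap, and the log2 fold change in PCGF6-KO was -1.87 (SE 0.64, adjusted p = 0.0492). This call was lost without either WT library (adjusted p = 0.123 and 0.271) and without clone 2 replicate 1 (0.0849). The 250 bases before its start have the fewest CG pairs of those printed, 14, in capitals.
FOXN4, minus strand, chr12:109309285-109309534: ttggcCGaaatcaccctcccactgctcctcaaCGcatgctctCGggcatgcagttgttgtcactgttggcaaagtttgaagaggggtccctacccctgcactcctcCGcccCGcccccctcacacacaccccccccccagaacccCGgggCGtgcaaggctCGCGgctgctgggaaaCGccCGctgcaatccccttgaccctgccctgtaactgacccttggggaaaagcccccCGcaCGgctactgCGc

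FOXN2 and FOXN3, checkpoint-related members of the same subfamily, were lower by less than the fold threshold. FOXN3 was counted 3359 and 3653 times in WT, 2589 and 2698 times in clone 1 and 2623 and 2562 times in clone 2, with both clones below WT (log2 fold change -0.53, adjusted p = 0.000546). The log2 fold change of FOXN2 was -0.55 (adjusted p = 0.00207). In clone 1 FOXN3 was called lower without WT replicate 1 and with upper-quartile normalization, and both were without clone 1 replicate 2. In clone 2 FOXN2 was called lower with upper-quartile normalization.

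**Figure D1:**
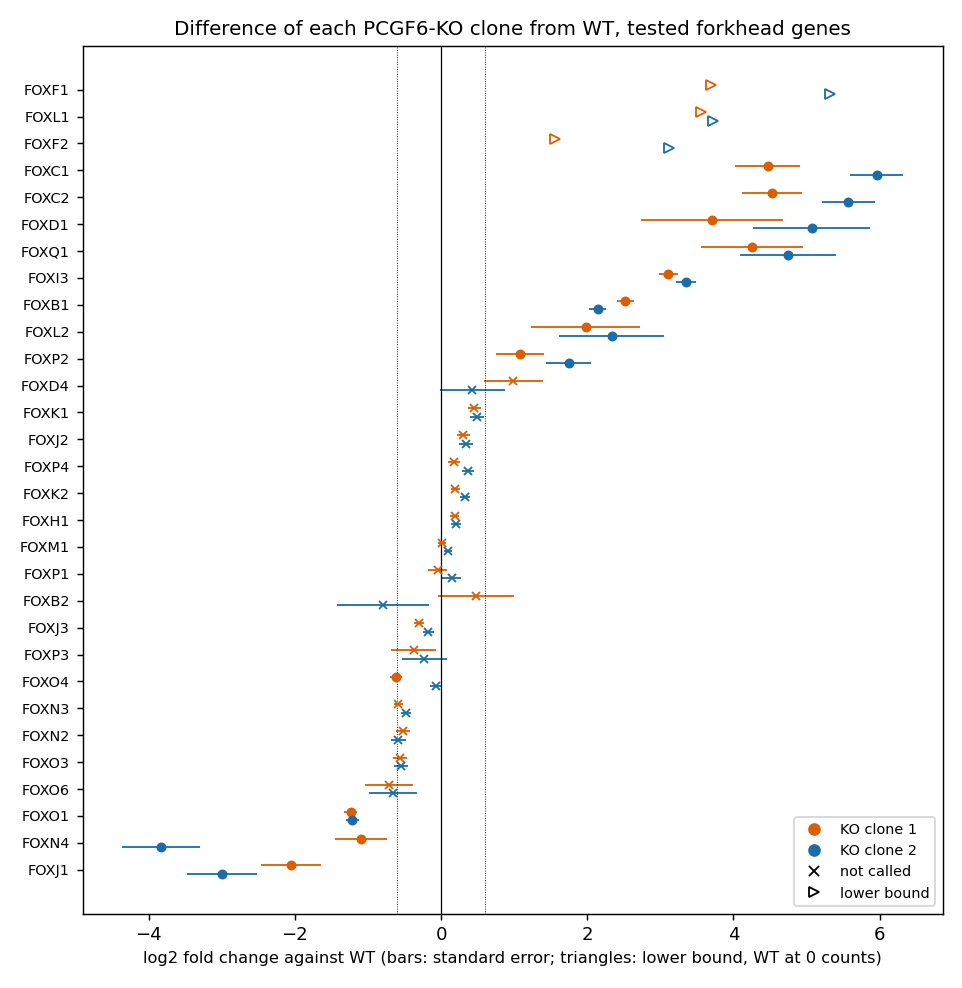
Log2 fold change of each tested forkhead gene in PCGF6-KO clone 1 (orange) and clone 2 (blue) against WT, with bars for the standard error; filled circles were called, crosses were not, dotted lines mark 0.6 in both directions, and open triangles are lower bounds for FOXF1, FOXL1 and FOXF2, which had no count in WT. FOXO1 lies at nearly the same value in both clones, while FOXN4 lies at -1.09 in clone 1 and -3.84 in clone 2.

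Most of the forkhead RNA came from genes that changed little. FOXM1 had the highest level, 271 ± 4.91 TPM in WT, 270 ± 9.87 in clone 1 and 269 ± 2.60 in clone 2 (SD, n = 2 each). It was counted 4940 and 4915 times in WT, 5971 and 5319 times in clone 1 and 5790 and 5160 times in clone 2, with a log2 fold change of 0.06 (SE 0.06, adjusted p = 0.489). ITFG2 and RHNO1 overlap it on the opposite strand and were not called. Of 25 targets of FOXM1 in mitosis, 1, the centromere histone CENPA, was upregulated (log2 fold change 1.27, adjusted p = 0.00138), none was downregulated and the median was 0.07. That is 4% of the list, beside 23.6% of all genes, and without clone 1 replicate 2 the number was 2.

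FOXH1, the partner of SMAD2 and SMAD3 at NODAL target genes, came next with 198 ± 1.72 TPM in WT, 221 ± 12.1 in clone 1 and 210 ± 6.74 in clone 2 (SD, n = 2 each). It was counted 1825 and 1840 times in WT, 2526 and 2192 times in clone 1 and 2384 and 2003 times in clone 2. The increase was under the fold threshold (log2 fold change 0.20, SE 0.06, adjusted p = 0.0417). KIFC2, on the opposite strand, had 96 to 197 counts. Of the 8 SMADs, receptors and cofactors that act with FOXH1, SMAD3 alone was upregulated (log2 fold change 1.41, adjusted p = 0.000158), and the median was -0.23. That is 12.5% called, beside 23.6% of all genes.

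Of 7 known targets of FOXH1 and SMADs, 6 were upregulated, with a median log2 fold change of 3.76. That is 85.7% called, beside 23.6% of all genes. EOMES and GSC entered the test only through the PCGF6-KO libraries, so this share is a description. The seventh, LEFTY1, a NODAL antagonist named after its values were seen, was counted 185 and 193 times in WT, 195 and 201 times in clone 1 and 148 and 107 times in clone 2. It was not called in the pooled comparison (log2 fold change -0.34, adjusted p = 0.206) and was called lower in clone 2 (-0.62, adjusted p = 0.000744). EOMES, a factor of the primitive streak, showed 3 and 5 counts for WT, 2630 and 2528 for clone 1 and 1615 and 1647 for clone 2 (log2 fold change 8.87, adjusted p = 5.64e-07). MIXL1, which acts in mesendoderm, went from 70 and 46 counts in WT to between 5494 and 5918 in the 4 PCGF6-KO libraries. GSC, an organizer factor, had 1 count in each WT library and 49 to 60 in PCGF6-KO. Of 6 mesendoderm markers tested all were upregulated, 3 of which stand in both lists, and the summed level of the 8 listed was 15.2 to 17.6 CPM in WT, 736 to 747 in clone 1 and 876 to 893 in clone 2. MESP1 had no count in WT.

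FOXJ3 (61.4 TPM over all libraries) and FOXO4 (52.7 TPM) completed the 5 most abundant, after FOXN3 (66.2 TPM). FOXJ3 was counted 1807 and 1788 times in WT, 1636 and 1658 times in clone 1 and 1644 and 1653 times in clone 2, with a log2 fold change of -0.24 (adjusted p = 0.0466), and FOXJ2 had one of 0.32 (adjusted p = 0.0101). FOXK1 and FOXK2, which recruit the deubiquitinase BAP1 and the SIN3 repressor, had log2 fold changes of 0.48 (adjusted p = 0.00176) and 0.26 (adjusted p = 0.018), under the fold threshold. Of 12 partners of FOXK and FOXP factors, 1, ASXL3, was upregulated (log2 fold change 1.51, adjusted p = 0.00134), none was downregulated, and the median was -0.08. That is 8.33% called, beside 23.6% of all genes. FOXD4 had 11 and 12 counts in WT and 13 to 29 in the knockouts (log2 fold change 0.74, adjusted p = 0.161). In clone 1 alone its log2 fold change was 0.99 (adjusted p = 0.0501). There it was called higher with no filter, with at least 10 counts in at least 4 libraries, and with the replicate block. Near copies of FOXD4, of the FOXD4L type, could hold some of its reads.

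Summed over the 39 genes, forkhead RNA was 936 and 938 TPM for WT, 951 and 947 for clone 1 and 955 and 969 for clone 2. FOXM1 made up 27.7% to 29.4% and FOXH1 20.9% to 24.1% of it. FOXM1, FOXH1, FOXN3, FOXJ3 and FOXO4, the 5 with the highest mean, together held 73.6% and 73.3% in WT and 66.8% to 68.6% in the PCGF6-KO libraries. The number of forkhead genes with at least 10 counts was 21 and 22 in the WT libraries and 26 to 27 in the PCGF6-KO libraries, which were also the more deeply sequenced.

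Taken clone by clone against the same WT libraries, 11 genes were higher and 4 lower in clone 1, where 24.8% of all genes were called, 16% higher and 8.8% lower. In clone 2, 11 were higher and 3 lower, where 29.4% of all genes were called, 16.9% higher and 12.5% lower. FOXO4 was the gene called in clone 1 and not in clone 2. FOXI3 rose by 3.11 in clone 1 and 3.35 in clone 2, FOXB1 by 2.52 and 2.14, and FOXP2 by 1.08 and 1.75. By DESeq2, 4 of the calls in clone 1 were lost, those of FOXD1, FOXL2, FOXN4 and FOXP2, and without WT replicate 2 these 4, FOXF2 and FOXO4 were lost. Without WT replicate 1 the call of FOXF2 in clone 1 was lost (adjusted p = 0.0619), and without clone 1 replicate 2 that of FOXN4 (0.0741), while FOXL2 was then not tested. In clone 2, FOXL2 was lost without WT replicate 2 (adjusted p = 0.118), without clone 2 replicate 2 (0.0779) and by DESeq2 (0.0798).

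The clones differed from each other in 5 forkhead genes, 4 higher and 1 lower in clone 2, where 7.87% of all genes were called, 3.73% higher and 4.14% lower. FOXF1 was higher in clone 2 by 1.61 on the log2 scale (SE 0.30, adjusted p = 0.000277), FOXC1 by 1.49 (SE 0.19, adjusted p = 2.55e-06) and FOXC2 by 1.05 (SE 0.19, adjusted p = 0.000242). FOXD1 was higher by 1.37 (SE 0.45, adjusted p = 0.0335). It entered the test only through clone 2, so it carries no weight in the count set against the 3.73%. FOXN4 was lower, with a difference of -2.74 (SE 0.60, adjusted p = 0.00167). The call of FOXD1 rested on single libraries. Its adjusted p was 0.0792 without clone 1 replicate 1 and 0.124 without clone 1 replicate 2, and it was not tested without either library of clone 2.

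FOXF2 had a difference of 1.54 (SE 0.56, adjusted p = 0.0575), FOXQ1 of 0.49 (adjusted p = 0.372), FOXL1 of 0.16 (adjusted p = 0.823) and FOXI3 of 0.24 (adjusted p = 0.0818). FOXB1 was lower in clone 2 by a difference of -0.38 (SE 0.09, adjusted p = 0.00494), under the fold threshold. FOXO1 had a difference within its error (0.02, SE 0.09, adjusted p = 0.931). In mean CPM, clone 2 exceeded clone 1 for 10 of the 11 genes upregulated in PCGF6-KO, all but FOXB1. For 9 of them both libraries of clone 2 were above both of clone 1. The 9 include FOXL1, at 1.098 and 1.045 CPM in clone 1 and 1.103 and 1.309 in clone 2. The share of all genes with such an order was not computed, so these counts are a description. PCGF6 itself was higher in clone 2 (difference 0.90, adjusted p = 5.44e-05). Of the 10 lateral mesoderm markers 7 were also higher in clone 2, and none was lower. That is 70% called, beside 7.87% of all genes. Among these 10, NKX2-5, with 5 and 6 counts in clone 1, entered the test only through clone 2, so the share is a description.

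**Figure D2:**
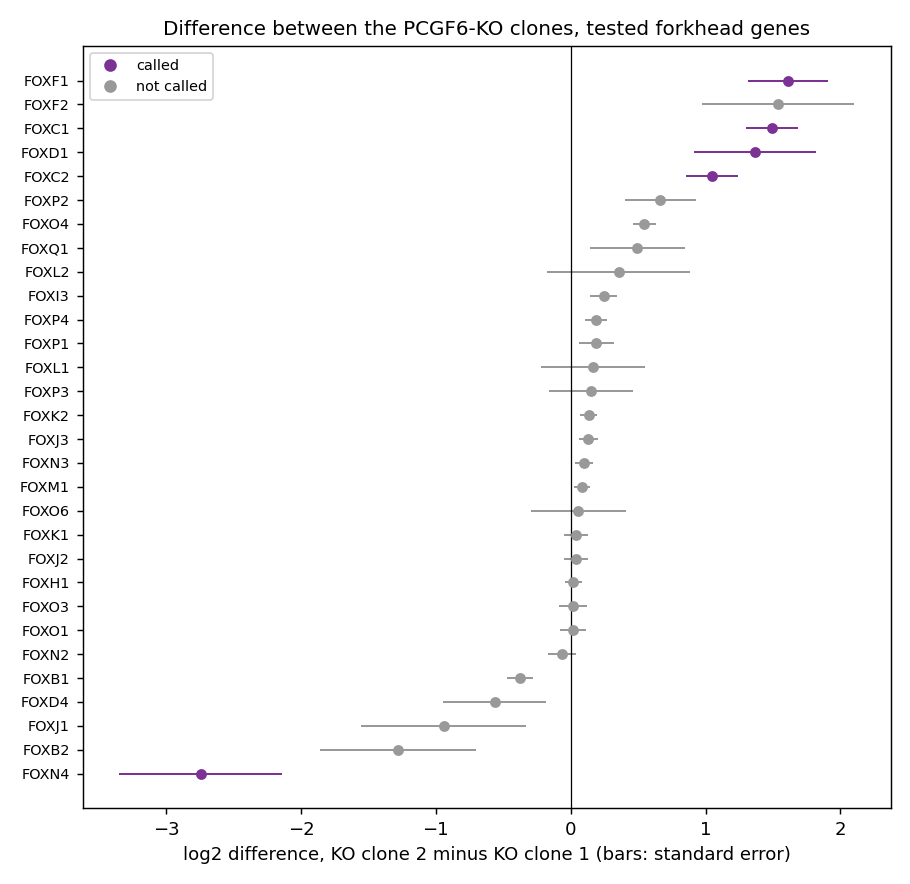
Difference between PCGF6-KO clone 2 and clone 1 in log2 units for each tested forkhead gene, with bars for the standard error, called genes in purple and the others in grey. FOXF1, FOXC1, FOXD1 and FOXC2 were called above 0 and FOXN4 below it, while FOXF2 lies at 1.54 with a wide error bar and was not called.

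RefSeq held promoter windows for 30 of the 39 forkhead genes, 41 windows of 300 bases from 250 before to 50 after a start. The windows of these genes had a median of 26 CG pairs and 68% G and C, beside 14 and 58.7% over all 35116 windows. Searched on both strands, CACGTG, a site of MAX and its partners, stood in 7.26% of all windows and in those of FOXK1 and FOXP4; it reads the same on both strands. GCGGGAA, a site of E2F factors, stood in 6.55% and in the windows of FOXD4 and FOXI1. A forkhead site, TGTTTAC, stood in 3.42% and in windows of FOXO4 and FOXP1, and TATAAA in 11.5% and in those of FOXP3 and FOXR2. None of the 10 genes called in PCGF6-KO against WT that had a window held any of the 4, which says only that these letters are not in these windows.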

How the data were processed

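Per the labels and the study's methods, the authors trimmed reads with Trim Galore (0.6.2), aligned them to GRCh38 with HISAT2 (2.1.0) and tallied reads over genes with featureCounts; they deposited raw counts, whole numbers that are not normalized, with a length per gene. The annotation release, strand setting and handling of reads with several alignments are not given in the sources used here, so genes that overlap on opposite strands, and near copies, may share counts. The 6 libraries held 15877396 to 18918609 counts, and intervals and floors cover counting error only.

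Genes with low counts were removed with filterByExpr of edgeR (4.0.16, limma 3.58.1, R 4.3.3) on the 2 genotypes, leaving 17672. After TMM scaling, glmQLFit and glmQLFTest compared 4 PCGF6-KO with 2 WT libraries, and a fit with 3 groups compared the clones. P-values were adjusted by Benjamini-Hochberg over all tested genes. CPM used the TMM-scaled library sizes and TPM the deposited counts and lengths. Gene positions came from GENCODE release 44 on GRCh38 and promoters from RefSeq. A group with 0 counts was set to 3 counts over the group, and a group with 1 to 3 counts got a 95% counting interval. Alternatives were RLE and upper-quartile scaling, no filter, at least 10 counts in at least 4 libraries, DESeq2 (1.42.0), a replicate block, other thresholds, the mean of the clones in a fit with 3 groups, and leaving out each library. The fits were tested on simulated data. The replicate numbers did not pair the samples (r = 0.05, 0.07 and 0.15 over 14850 genes).

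The genes and lists were chosen with earlier results of these data known. Values are given for forkhead genes called in any comparison and the 5 with the highest TPM, and from each list for at most 4 called genes with the largest change. ChIP-seq was not analysed here, nor were protein sequences, and 1 forkhead gene and some genes of the lists are not reported here.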

Additional observations from a re-analysis of the deposited data

Results flagged for a closer look

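In 5 forkhead genes the level differed between the clones by a direct test of clone 2 against clone 1, with 1 clone on each side. On the log2 scale clone 2 was higher by 1.49 for FOXC1, 1.05 for FOXC2, 1.37 for FOXD1 and 1.61 for FOXF1. The difference was -2.74 for FOXN4. FOXD1 entered the test only through clone 2. In the 34 forkhead-related groups of 4 libraries examined, no library stood far from the others by Dixon's criterion, which by chance would mark about 1 in 20. Such a group holds 2 libraries of each clone, so a difference between the clones can hide a single library. WT and each clone alone, with 2 libraries, could not be examined this way.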

How the results depend on the processing

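Under the alternatives run for the 15 genes followed in PCGF6-KO against WT, 172 of 186 values kept direction and side of the thresholds, 14 lost the call (FOXD1, FOXF2, FOXL2, FOXN4 and FOXP2) and 0 turned; the cause was not tested. With the adjusted p alone, 23 genes were called (7 lower) in place of 14, 23 (8 lower) in clone 1 in place of 15 (4 lower), 23 (7 lower) in clone 2 in place of 14, 2 were lower in clone 2 than in clone 1 in place of 1, and 52 genes of the pathway lists were called in place of 25. The share of all genes called by the adjusted p alone is not given here, so these counts are a description. DESeq2 gave no adjusted p for FOXD1 between the clones. Leaving out 1 library gave 9 to 14 calls (7 to 11 higher, 2 to 3 lower) in PCGF6-KO against WT, 9 to 16 (7 to 11 higher, 2 to 6 lower) in clone 1, 11 to 14 (8 to 11 higher, 3 lower in each) in clone 2, 4 to 5 (3 to 4 higher, 1 lower in each) between the clones, and 17 to 26 pathway genes. PCGF6 then ranged from -1.32 to -0.99, and its call was lost without WT replicate 1 (-1.22) or WT replicate 2 (-1.09). Between the clones FOXL2 ranged from -0.23 to 0.68 and turned to -0.23 without clone 1 replicate 1 and -0.03 without clone 2 replicate 2, and FOXO1 ranged from -0.13 to 0.17 and turned to -0.0079 with upper-quartile scaling, -0.13 without clone 1 replicate 1 and -0.02 without clone 2 replicate 2; none of these was called. With the replicate block 12 genes were called in PCGF6-KO against WT, without FOXL2 and FOXN4, and 16 in clone 1, 14 in clone 2 and 5 between the clones; the replicate numbers pair nothing that the sources name. With no filter, and with DESeq2, the median log2 fold change of all genes moved to 0.10. Genes with few counts in WT limit what these libraries can show: 12 of the 39 had at most 3 counts over both WT libraries.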
